A study of Sus scrofa with 15 samples.

Results

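The sarcomere genes MYL1, MYLPF, MYH2, TNNC2, TTN, NEB and KLHL41 were followed in backfat, the subcutaneous fat over the back, of 15 castrated male Iberian pigs. They were taken by platform-annotated symbol, which gave 8 of the 3255 probe sets tested, 2 of them for TTN and 1 for each of the 6 other genes. They are 7 of the 1260 genes named in the table. The diets were high-oleic (8 animals), rich in the monounsaturated oleic acid as the name says, and control (7 animals, a standard feed), with 1 Affymetrix array per animal. Both groups shared the breed, the castration and the tissue, labelled as the inner layer of the fat. Feeding ran for 24 weeks from 28 kg live weight to slaughter at about 110 kg, with feed amounts set to give both groups equal energy and protein. The feeds themselves differed in energy, at 3360 kcal/kg for high-oleic and 3130 kcal/kg for control. The labels name no allele, no drug and no age. Values are the deposited log2 signals, so a difference of 1 is a doubling, and the animal is the replicate. The study asked how dietary oleic acid bears on expression in fat.

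A sarcomere is the contractile unit of striated muscle. Thick filaments are built from myosin, whose heavy chains carry the motor and whose light chains bind the neck of each head. Thin filaments are built from actin and carry the calcium switch made of troponins and tropomyosin. Titin spans from the edge to the middle of the sarcomere and nebulin runs along the thin filament, and both are giant proteins. Fat cells are not known for sarcomeres. In bulk tissue, fewer muscle cells and less RNA per muscle cell cannot be told apart.

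The arrays had medians of 6.38 to 6.67. Each tested probe set varied by 0.59 or more from its own median on at least 3 arrays, so steadier genes were not analysed here. Of 10 adipocyte markers 3 were measured, LEP, PNPLA2 and FASN, and none of the 3 passed for diet (limma, Benjamini-Hochberg adjusted p = 0.999 for each). The array of high-oleic animal 8 correlated least with the others, at a mean r of 0.834 against 0.875 to 0.922 for the 14 other arrays. It also had the highest signal of transcripts spiked into the RNA, at 7.29. Results without that array are within the leave-one-out ranges of the closing section.

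Of the thick filament genes, MYL1 covered the widest span. It encodes the alkali light chain of fast myosin. In high-oleic animals its log2 signal was 2.27 at the lowest, 6.79 at the median and 9.88 at the highest, against 2.21, 6.94 and 10.49 in control animals. The highest values belonged to high-oleic animal 7, control animal 2 and control animal 5, at 9.88, 10.49 and 8.99. In the 12 other animals MYL1 was graded over 5.50 log2 units, with a lowest value of 2.21 in control animal 1 and a highest of 7.71 in high-oleic animal 5.

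MYLPF encodes the phosphorylatable regulatory light chain of fast myosin. It lay at 2.77, 5.31 and 8.78 (lowest, median and highest) in high-oleic animals, against 1.99, 5.57 and 8.77 in control animals. It too was graded, with values of 6.47, 6.86 and 7.26 in high-oleic animals 5, 6 and 8 and of 6.65 in control animal 6. Both diets held animals near the bottom of the scale, and the groups overlapped over nearly their whole range.

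MYH2 encodes the heavy chain of type IIa fibres, which are fast and oxidative. It lay at 2.94, 4.33 and 8.81 in high-oleic animals, against 2.54, 5.78 and 9.15 in control animals. Here the 3 top animals stood apart, at 8.81 in high-oleic animal 7, 9.15 in control animal 2 and 8.87 in control animal 5, and the 12 others reached at most 6.04. Myosin heavy chain genes are near-identical paralogs, so probes for MYH2 may also bind transcripts of other fast heavy chains.

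The thin filament was represented by TNNC2, the calcium-binding troponin of fast fibres. Its log2 signal was 2.65, 6.63 and 9.27 (lowest, median and highest) in high-oleic animals, against 2.88, 6.75 and 9.60 in control animals. Its values followed the light chains closely. High-oleic animal 7 had 9.27, control animal 2 had 9.60 and control animal 5 had 8.43, while the 12 others lay between 2.65 and 7.57. Among these 12 there was a break, with 7 animals at 6.30 or more and 5 animals at 4.07 or less.

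TTN, which encodes titin, ran as a step. It was read by 2 probe sets, numbered here by their mean signal. The first, with the higher mean, lay at 3.56, 3.76 and 6.04 in high-oleic animals, against 3.52, 3.92 and 7.34 in control animals. The second lay at 2.27, 2.45 and 6.36 in high-oleic animals, against 2.16, 2.48 and 7.25 in control animals. On the second, high-oleic animal 7 had 6.36, control animal 2 had 7.25 and control animal 5 had 7.15, and each of the 12 others lay between 2.16 and 2.91. On the first, those 12 spanned 0.48 from a lowest value of 3.52. The clear space between the 12 and the 3 high animals was 2.05 on the first and 3.45 on the second. It was wider than the spans of the 12, 0.48 and 0.75. On both, only those 3 animals lay 0.59 or more from the probe set's median. Every tested probe set did so on at least 3 arrays, so probe sets this flat in the 12 were tested only through those 3. The step is thus a description and supports no trait of TTN.

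NEB, which encodes nebulin, was graded more narrowly than the light chains. It lay at 4.34, 4.89 and 7.19 in high-oleic animals, against 4.09, 4.89 and 8.31 in control animals. High-oleic animal 7 had 7.19, control animal 2 had 8.31 and control animal 5 had 7.49, and the highest of the 12 others, high-oleic animal 6, had 5.36. KLHL41 encodes a kelch protein of skeletal muscle that stabilises nebulin. It lay at 3.06, 3.15 and 4.71 in high-oleic animals, against 2.99, 3.20 and 6.77 in control animals. High-oleic animal 7 had 4.71, control animal 2 had 6.77 and control animal 5 had 6.07. Among the others only control animal 6, at 3.95, rose above 3.27.

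**Figure D1:**
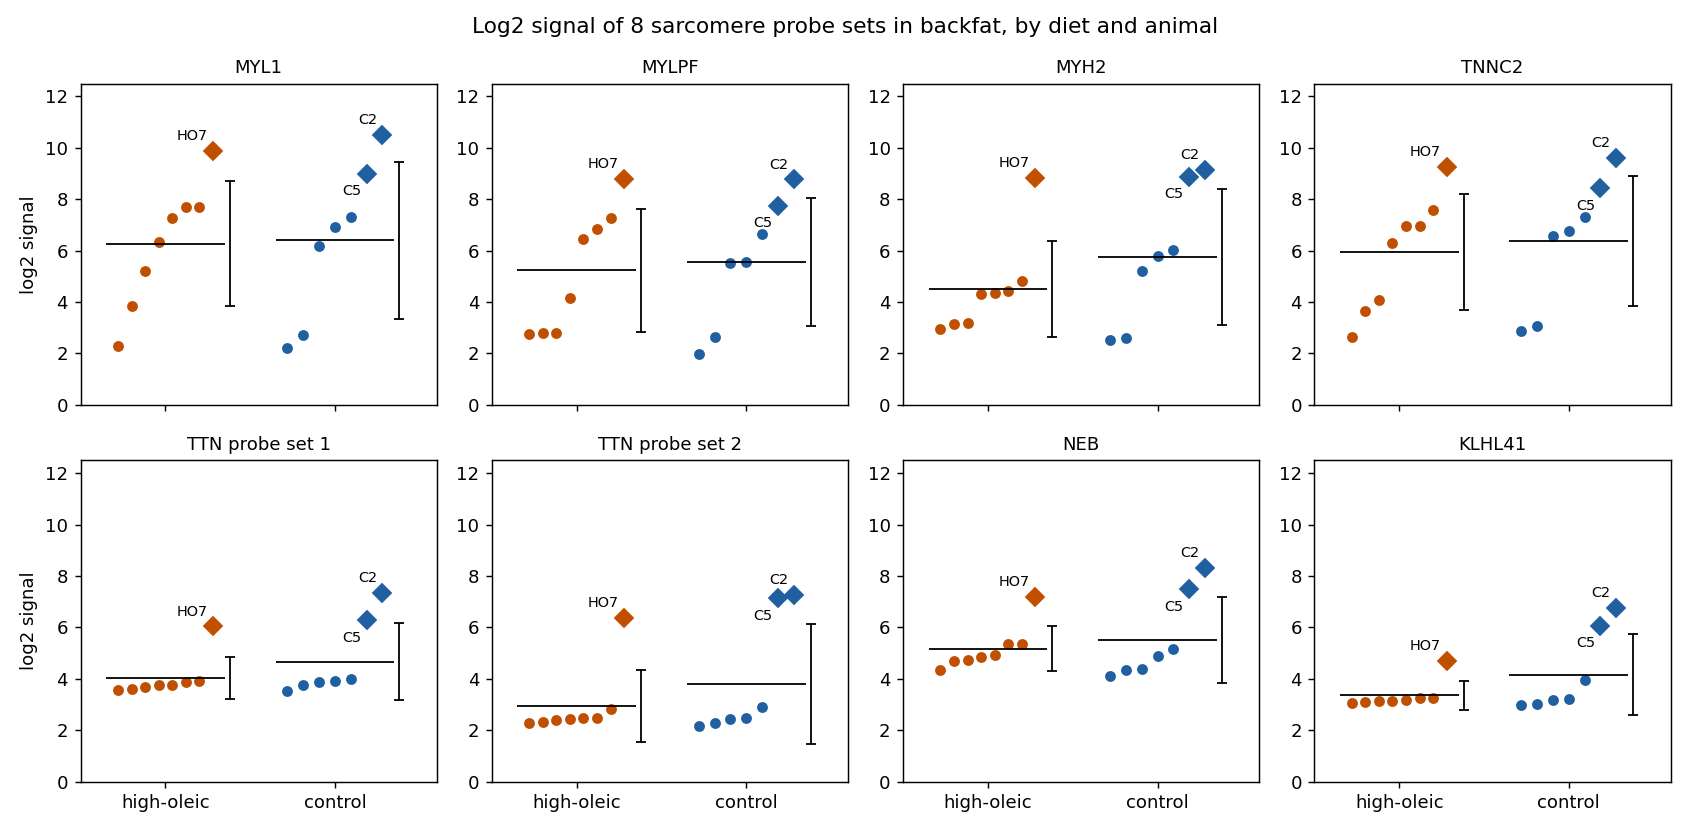
Log2 signal of each of the 8 probe sets in high-oleic animals (orange, n = 8) and control animals (blue, n = 7). Lines are means, bars to the right of each group are SD, and diamonds mark high-oleic animal 7 (HO7) and control animals 2 and 5 (C2, C5). The light chains are graded over the animals. MYH2 has a clear space of 2.78 below the 3 marked animals, and TNNC2 has a break from 4.07 to 6.30 among the others. Outside the 3 marked animals the TTN probe sets and KLHL41 span 0.96 or less and NEB spans 1.27.

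The spans of the light chains, MYH2 and TNNC2 were all wider than those of TTN, NEB and KLHL41. Signal levels of different probe sets cannot be compared, but the span of 1 probe set over the 15 arrays can be described. The span was 8.29 for MYL1, 6.79 for MYLPF and 6.62 for MYH2 of the thick filament, and 6.95 for TNNC2 of the thin filament. It was 3.82 and 5.09 for the 2 TTN probe sets, 4.21 for NEB and 3.78 for KLHL41. The median span of all 3255 tested probe sets was 2.01 and their 99th percentile 5.87. Over the 12 other animals alone the span was 5.50 for MYL1, 5.27 for MYLPF, 4.92 for TNNC2 and 3.50 for MYH2, but 1.27 for NEB, 0.96 for KLHL41, 0.48 for the first TTN probe set and 0.75 for the second. The median of the same quantity over all probe sets was 1.92. The 12 were picked by their low values in these genes, which narrows their spans. TTN, NEB and KLHL41 varied by 0.59 or more from their medians on at least 3 arrays only through the 3 high animals. As every tested probe set varied that much, this also weighs on the contrast of spans in the 12. A span whose low end is at the array floor, as for all members but NEB and the first TTN probe set, is a lower bound. The first TTN probe set lay within 0.5 of its own lowest value on 12 arrays, so its span may be a lower bound as well. These spans are descriptions of 8 probe sets, and no test was made between classes.

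The number of arrays at the floor did not follow these classes. No detection calls were used here, so the floor of an array was taken as the 5th percentile of its tested probe sets, which lay between 3.05 and 3.33. The second TTN probe set was at or below the floor on 12 of 15 arrays, KLHL41 on 6, MYLPF on 5, and MYL1, MYH2 and TNNC2 on 3 each. The first TTN probe set and NEB were at or below it on 0 arrays, yet the first TTN probe set lay within 0.5 of its own lowest value on 12 arrays. With the 10th percentile as the floor it was at or below it on 8 arrays. KLHL41 lay within 0.5 of its lowest value on 11 arrays, the second TTN probe set on 10, NEB on 4, MYL1, MYH2 and TNNC2 on 3 each and MYLPF on 1. In all, 32 member values were at the floor; with the 2nd percentile as the floor there were 16.

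All 8 probe sets put high-oleic animal 7 and control animals 2 and 5 above the 12 other animals. Over the whole table, 0.584% of the probe sets did so, which was 19. These animals were known from earlier results as high in muscle genes, so nothing is read from this count. The clear space between the lowest of the 3 and the highest of the 12 was 3.45 and 2.05 for TTN (second and first probe set), 2.78 for MYH2, 1.83 for NEB and 1.29 for MYL1. It was 0.86 for TNNC2, 0.75 for KLHL41 and 0.48 for MYLPF.

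The order within the 3 animals was not the same for all classes. High-oleic animal 7 exceeded control animal 5 by 1.03 for MYLPF, 0.89 for MYL1 and 0.85 for TNNC2. The difference, high-oleic animal 7 minus control animal 5, was -0.06 for MYH2, or 0.07 after quantile normalization. It was -0.29 for NEB, -0.25 and -0.79 for the 2 TTN probe sets and -1.36 for KLHL41. Signs of the differences other than that of MYH2 were the same after quantile normalization, median centring and a floor. Control animal 2 was first of all 15 in 7 of the 8 probe sets, and second in MYLPF, at 8.77 against 8.78 in high-oleic animal 7. As each animal gave 1 array, these differences have no replicate check. The difference between the 3′ and 5′ actin control probe sets, a measure that also reads RNA integrity, was 0.59 in high-oleic animal 7, 0.75 in control animal 2 and 0.78 in control animal 5, within the range of -0.22 to 1.67 of the other animals. It did move with the members at the low end. High-oleic animals 1 and 3 and control animals 1 and 7, the 4 animals lowest in MYL1, had the 4 lowest differences, at 0.40 and -0.22 and at 0.55 and 0.24. The actin 5′ signal was 9.99 in high-oleic animal 7, 10.20 in control animal 2 and 8.70 in control animal 5, against at most 8.23 in the 12 others. The actin 3′ signal was 10.58, 10.95 and 9.48 in the same animals, against at most 9.51 in the 12 others, so control animal 5 did not stand apart there. The part of these measures in the results was not tested.

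**Figure D2:**
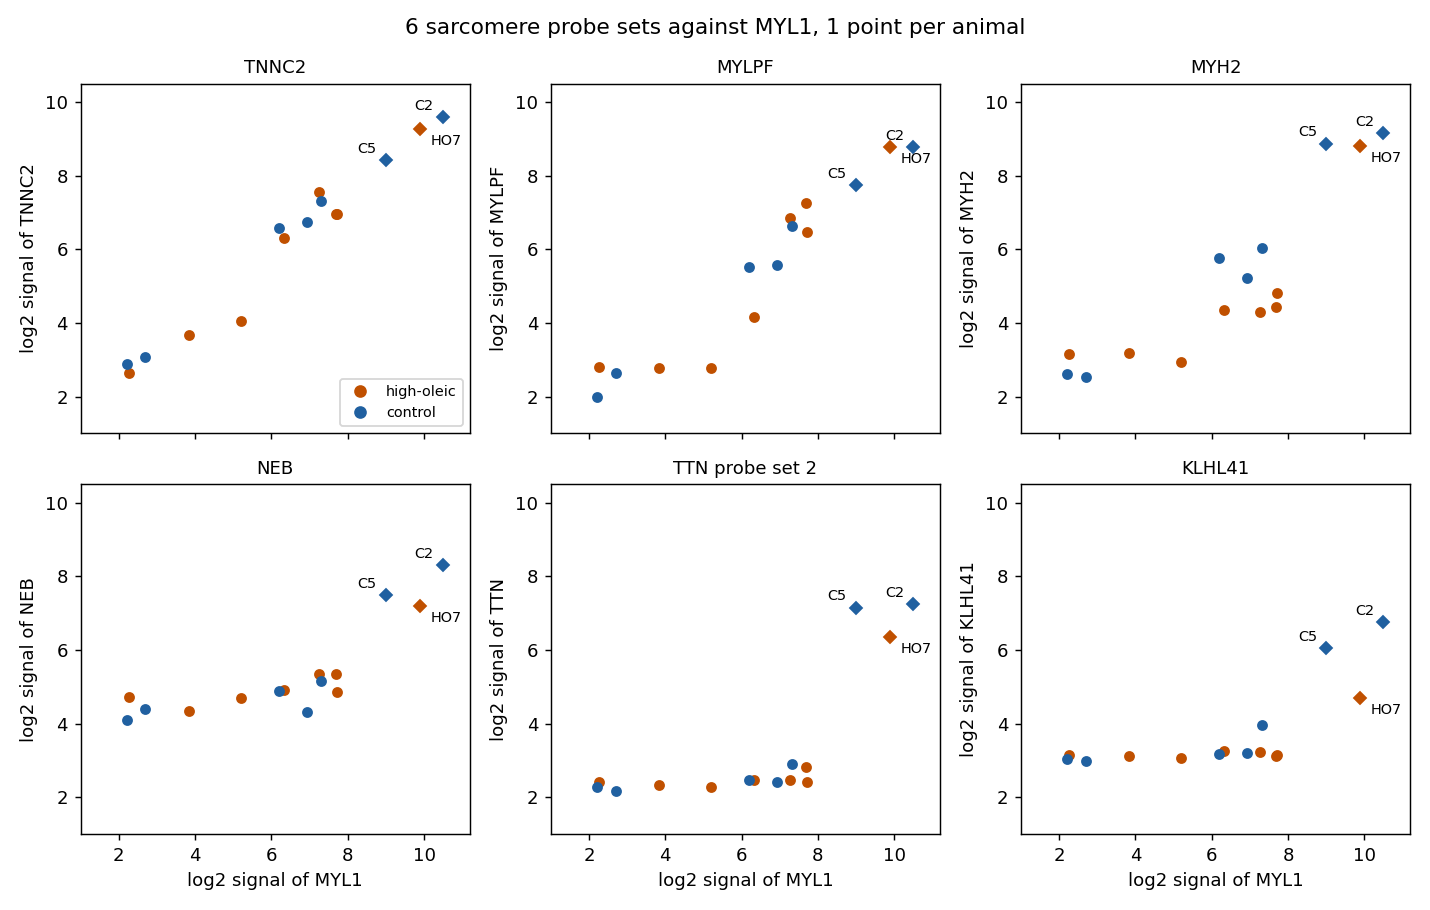
Log2 signal of 6 probe sets against that of MYL1, 1 point per animal, with high-oleic animals in orange and control animals in blue; diamonds mark high-oleic animal 7 (HO7) and control animals 2 and 5 (C2, C5). TNNC2 and MYLPF climb with MYL1 across the animals, while the second TTN probe set stays between 2.16 and 2.91 in the 12 other animals as MYL1 runs from 2.21 to 7.71.

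MYL1, MYLPF and TNNC2 ordered the 15 animals nearly alike. For MYL1 and TNNC2, r was 0.983 (permutation p = 1e-05, the smallest that 100000 resamples can give) and rho was 0.957 (permutation p = 1e-05). For MYLPF and TNNC2, r was 0.969 and rho 0.946, and for MYL1 and MYLPF, r was 0.955 and rho 0.943, each with the same permutation p. Benjamini-Hochberg adjusted values over the 21 pairs of member genes were 3e-05 for r and 7e-05 for rho in these 3 pairs. Without the 2 animals farthest from the median, r was 0.976, 0.958 and 0.950. Within control animals all 3 pairs had a rho of 1.00 (n = 7, exact permutation p = 0.0004, adjusted p = 0.00278), so the 7 animals stood in 1 order by value. Control animals 1 and 7 were below the floor of their arrays in all 3 genes, so their order is not known. Ties at the floor were not tried within a diet. Within high-oleic animals rho was 0.905, 0.881 and 0.833 (n = 8, exact permutation p = 0.00456, 0.00724 and 0.0154, adjusted p = 0.0240, 0.0304 and 0.0461). MYLPF was below the floor in high-oleic animals 1, 3 and 4. The break in TNNC2 within the 12 animals given above weighs on the pooled values.

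For pairs with MYH2, TTN, NEB or KLHL41, the animals fell into the 3 high ones and the 12 others, so the relation was read within the 12. Picking the 12 by low values narrows their range. All 6 pairs among MYL1, MYLPF, MYH2 and TNNC2 kept a common order there, with rho from 0.720 to 0.916 and permutation p adjusted over 21 pairs of at most 0.0260. By the same test NEB passed with MYLPF (rho = 0.783, adjusted permutation p = 0.0211), TNNC2 (rho = 0.720, adjusted permutation p = 0.0260) and MYL1 (rho = 0.664, adjusted permutation p = 0.0473). KLHL41 passed with MYH2 (rho = 0.734, adjusted permutation p = 0.0260), but KLHL41 was at the floor on 6 of the 12 arrays. With values at the floor tied, a setting chosen after seeing the data, KLHL41 and MYH2 no longer passed (rho = 0.613, adjusted permutation p = 0.0741), nor did NEB and MYL1 (rho = 0.648, adjusted permutation p = 0.0578). NEB still passed with MYLPF and TNNC2 there, as did the 6 pairs among MYL1, MYLPF, MYH2 and TNNC2. High-oleic animals 1, 3 and 4 and control animals 1 and 7 ranked 11 to 15 of 15 in each of MYL1, MYLPF, MYH2 and TNNC2. The rho of the 6 pairs carry this split between low and higher animals. Control animal 3 ranked 10 in MYL1 but 5 in MYH2, and the order above the split was not tested on its own.

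With its first probe set, no common order of TTN and the light chains was detected in the 12 animals. Its rho was -0.105 with MYL1, 0.0035 with MYLPF and -0.0490 with TNNC2, with adjusted permutation p of 0.868 to 0.996, and 0.504 with MYH2 (adjusted permutation p = 0.136). With the mean of the 2 TTN probe sets, rho was 0.399 with MYL1 (adjusted permutation p = 0.201), 0.615 with MYLPF (0.0604) and 0.783 with MYH2 (0.0175), so these values depended on the probe set. The 2 TTN probe sets gave a rho of 0.298 with each other (n = 12, permutation p = 0.346), against an r of 0.977 over all 15. The 3 pairs among TTN, NEB and KLHL41 had rho from -0.0841 to 0.627 and none passed. TTN and KLHL41 did pass with the values at the floor tied (rho = 0.849, adjusted permutation p = 0.00677) or with the mean of the TTN probe sets (rho = 0.720, adjusted permutation p = 0.0213). By rho, 10 of 21 pairs passed in the 12 animals, 9 with values at the floor tied and 12 with the mean of the TTN probe sets. In the 15 animals 17 of 21 passed by rho and 21 with the mean of the TTN probe sets. The difference between these sets of pairs was not tested. Values at the floor have no order, and the second TTN probe set was at the floor in all 12 of these animals.

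**Figure D3:**
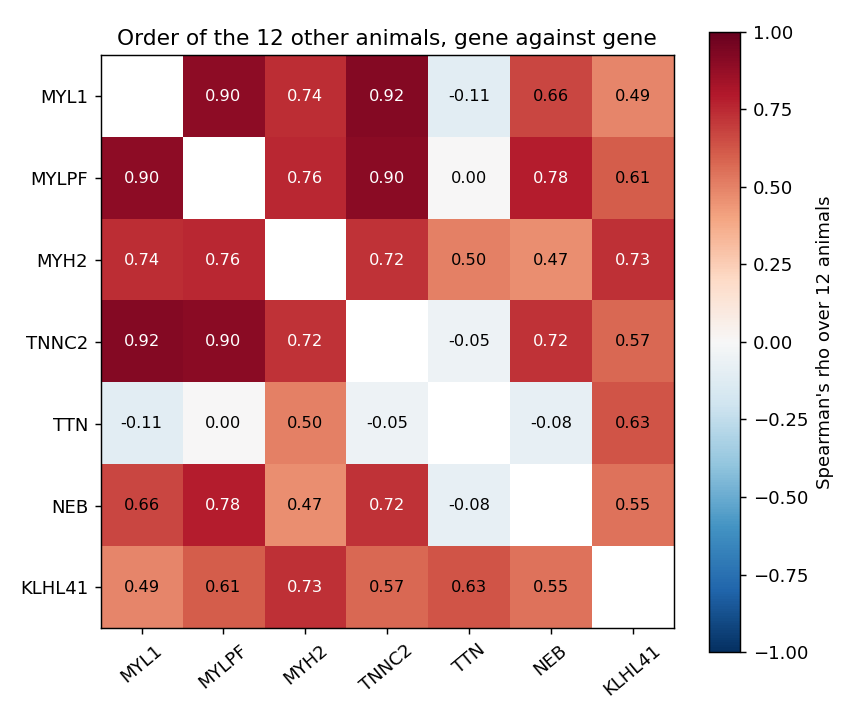
Spearman's rho between member genes over the 12 animals other than high-oleic animal 7 and control animals 2 and 5, with 1 probe set per gene; red is positive and blue negative. The block of MYL1, MYLPF, MYH2 and TNNC2 holds values of 0.720 or more, and the TTN row (first probe set) holds values near 0 with MYL1, MYLPF and TNNC2.

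The sarcomere genes did not differ detectably between diets. All 8 probe sets had lower means in high-oleic animals, by differences of -0.14 to -1.24 with a median of -0.54, and 0 of 8 passed the test in limma (Benjamini-Hochberg adjusted p = 0.999 for each). Over all 3255 probe sets 0% were called at an adjusted p under 0.05, and 3.93% had an unadjusted p under 0.05, where 0 of 8 members did. The median difference over all probe sets was -0.03. The high-oleic and control animals overlapped for all 8, as they did for all but 0.0307% of the table.

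MYH2 averaged 4.50 ± 1.88 in high-oleic animals (SD, n = 8) and 5.75 ± 2.64 in control animals (SD, n = 7), a difference of -1.24 with a 95% interval of -3.22 to 0.73. KLHL41 averaged 3.36 ± 0.55 in high-oleic animals (SD, n = 8) and 4.17 ± 1.58 in control animals (SD, n = 7), a difference of -0.81 with an interval of -1.86 to 0.24. MYL1 averaged 6.27 ± 2.43 in high-oleic animals and 6.41 ± 3.05 in control animals, a difference of -0.14 with an interval of -2.51 to 2.23. These intervals leave room for changes of more than a doubling either way in MYL1. Two-sided exact permutation p over 6435 splits lay between 0.230 and 0.924 for the 8 probe sets.

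The 3 high animals were shared unevenly, with 1 of 8 in the high-oleic group and 2 of 7 in the control group. Without them the differences ran from -0.55 for MYH2 to 0.68 for MYL1, with 5 of 8 positive and a median of 0.07. Without control animal 2 alone they ran from -0.68 for MYH2 to 0.55 for MYL1. With live weight in the fit 7 of 8 were positive, and KLHL41 was -0.05. None passed in these fits, with a lowest adjusted p of 0.999 among them.

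Live weight at slaughter was 109.2 ± 3.52 kg in high-oleic animals (SD, n = 8) and 117.2 ± 7.32 kg in control animals (SD, n = 7). High-oleic animal 7 was the heaviest of its group at 116 kg and control animal 5 the heaviest of all at 133 kg, but control animal 2, highest in 7 of 8 probe sets, was the lightest control animal at 112 kg. With diet in the model, the slope of the signal on live weight was positive for all 8 probe sets but passed for none, between 0.90 and 2.12 log2 units per 10 kg, with a median of 1.57 against 0.04 over all probe sets. The adjusted p in limma was 0.916 for each. TTN (second probe set), MYH2, NEB and KLHL41 had unadjusted p of 0.00913, 0.0148, 0.0407 and 0.0443, against 3.81% of all probe sets under 0.05 and 0% at an adjusted p under 0.05.

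The slopes depended on which of the 3 high animals was in the fit. Without control animal 5, the heaviest, 0 of 8 had an unadjusted p under 0.05 (lowest 0.119), and 0 passed. The slope was then 0.35 for KLHL41 (SE 0.83), 0.71 for NEB (SE 0.94), and 0.59 (SE 0.88) and 1.29 (SE 1.22) for TTN. Without control animal 2, 4 member probe sets passed out of 0.154% of the table: TTN at 2.59 (SE 0.37, adjusted p = 0.00286) and 1.41 (SE 0.27, adjusted p = 0.0401), KLHL41 at 1.45 (SE 0.24, adjusted p = 0.00990) and NEB at 1.63 (SE 0.29, adjusted p = 0.0192). Without high-oleic animal 7 as well, 2 of them passed, the second TTN probe set at 2.19 (adjusted p = 0.00690) and KLHL41 at 1.37 (adjusted p = 0.0306), again with 0.154% of the table called. That fit still held control animal 5. Without control animals 2 and 5, 0 passed (adjusted p = 0.990 for each), with slopes of 1.19 to 3.73 and a median of 2.78. In that limma fit 7 of 8 had an unadjusted p under 0.05 (lowest 0.00184), as had 134 of the 3255 probe sets. High-oleic animal 7 was still in it.

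Without all 3 high animals, 0 of 8 passed, as 0% of the table did, and the lowest adjusted p of the members was 0.905. The slope was then 0.06 and 0.18 for the 2 TTN probe sets, with standard errors of 0.57 and 0.59. It was 1.79 for MYL1 (SE 2.24), 1.97 for MYLPF (SE 2.06) and 1.35 for TNNC2 (SE 2.07). In these 12 animals MYL1 had its lowest values at 111.5 kg, 112.5 kg and 115 kg in high-oleic animal 3 and control animals 1 and 7. Its highest, 7.71, was at 110 kg in high-oleic animal 5. The lightest of the 12, high-oleic animal 1 at 104.5 kg, had 3.83, and the heaviest, control animal 6 at 118 kg, had 7.31. These values are over both diets, while the slope is at fixed diet.

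**Figure D4:**
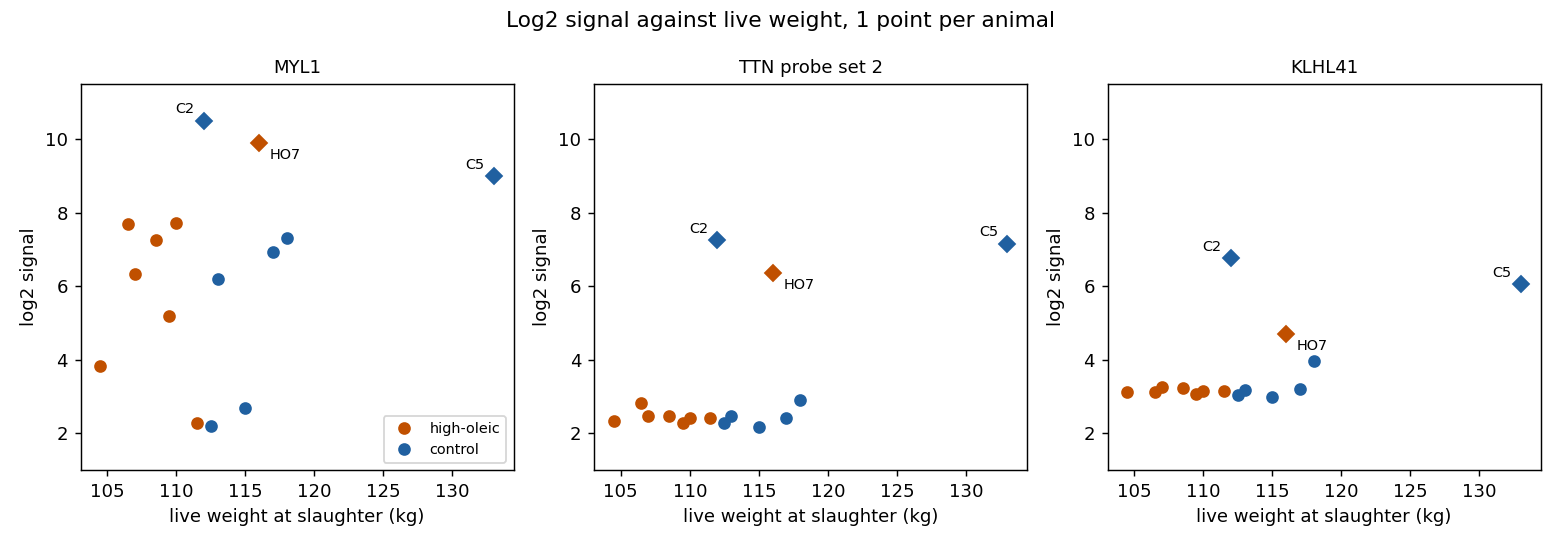
Log2 signal of MYL1, the second TTN probe set and KLHL41 against live weight at slaughter in kg, 1 point per animal, with high-oleic animals in orange and control animals in blue. The heaviest animal (C5, 133 kg) is high in all 3, but so is the lightest control animal (C2, 112 kg). At fixed diet the slopes of TTN and KLHL41 pass neither with all 15 animals nor without the 3 marked animals.

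Other sarcomere genes were few in the table. Of 14 further thin filament genes 3 were measured, of 16 Z-disc genes 4, of 14 calcium handling genes 1, and 0 of 14 thick filament, 13 kelch and assembly and 1 giant filament genes. None of these 8 passed for diet (adjusted p = 0.999) or for live weight (adjusted p of 0.916 or more). Their median diet differences were -0.21 for the thin filament, -0.49 for the Z-disc and -0.41 for the 1 calcium handling gene, against -0.03 over all probe sets.

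The fast troponins TNNI2 and TNNT3, partners of TNNC2, and the Z-disc genes MYOZ1 and MYOT also placed the 3 animals above the others. The other measured Z-disc genes, PDLIM3 and PDLIM5, did not. TNNT3 was 6.70 in high-oleic animal 7, 6.50 in control animal 2 and 4.62 in control animal 5, and at most 3.38 in the 12 others. TNNI2 was 7.11, 6.96 and 5.53 in the same animals and at most 4.13 in the others. High-oleic animal 7 exceeded control animal 5 by 2.09 for TNNT3 and 1.58 for TNNI2, in the direction of TNNC2. MYOT, which encodes myotilin, was at or below the floor on 12 arrays, as was the second TTN probe set. TPM2, a tropomyosin that smooth muscle also expresses, did not place the 3 animals on top, and was highest in control animals 1 and 6.

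Of the 1253 other named genes, those most like the mean of the 7 members over the 15 animals were SLN (r = 0.980), MYOZ1 (0.945), ENO3 (0.939), CKM (0.939), ACTG1 (0.937), TNNT3 (0.913) and TNNI2 (0.909), then PGAM2 (0.863), MYOT (0.862) and CMYA5 (0.850). The r is descriptive, and the 3 high animals weigh on it. In the 12 others it was 0.981 for SLN, which encodes the calcium pump regulator sarcolipin, and 0.981 for CKM, the muscle creatine kinase, but 0.478 for MYOT and 0.325 for CMYA5. The ACTG1 probe set belongs to a type that can bind several transcripts, and actin genes are close paralogs, so its reading is uncertain.

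Markers of other cell types were set beside these values. Of 12 skeletal muscle fibre markers 6 were measured, and their mean centred log2 signal had a median of -0.26 and a highest value of 2.08 in high-oleic animals, against 0.13 and 2.25 in control animals, with 2.08, 2.25 and 0.86 in high-oleic animal 7 and control animals 2 and 5. Of these 6, MYOT and PGAM2 placed the 3 animals on top and CKM, CKMT2, PYGM and ENO3 did not. For CKM, control animal 5 had 7.66, just under the 7.69 of control animal 6. The 5 measured of 8 smooth muscle markers stood at -0.54, -0.19 and -0.61 in those 3 animals, within the range of -0.65 to 1.66 of the others. The measured adipocyte markers, 3 of 10, stood at 0.49, -0.59 and 0.20, within -0.83 to 0.59. The satellite cell list (1 of 5 measured, DES), endothelium (1 of 4, KDR) and leukocytes (2 of 4) did not place the 3 animals on top. But KDR was at or below the floor on 13 arrays and the leukocyte gene CD3E on 12, so they could rank few animals. DES was highest in control animals 1 and 6, at 7.44 and 6.74, as were TPM2 and the smooth muscle markers ACTA2, TAGLN, CNN1 and MYL9. ACTG2, the other measured smooth muscle marker, was not. With DES alone, satellite cells cannot be told apart from smooth muscle here. Of the slow fibre and cardiac markers 0 of 6 each were measured, and no marker in these lists passed for diet. The part of muscle tissue in the samples was not tested.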

How the data were processed

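The authors deposited 1 table of log2 signal with a column for each of the 15 animals; GCOS and GCRMA are named in the submitters' processing notes, without a version or a role. Of its 3272 probe sets, 17 manufacturer's controls were left out. Symbols came from the platform annotation: 1455 tested probe sets had 1 symbol, 27 several and 1773 none. Of their gene IDs, 1445 matched the RefSeq table, used for names only, so no coordinates are given.

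Values were used as deposited. Diet differences and live weight slopes at fixed diet were fitted over all 3255 probe sets in limma 3.58.1 (R 4.3.3) with lmFit and eBayes and Benjamini-Hochberg adjustment, called at an adjusted p under 0.05. Tests were two-sided. Correlations had permutation tests with 100000 resamples, exact within a diet. For TTN the probe set with the higher mean was used in gene pairs. The genes named beyond the members were the 10 with the highest r with the mean of the 7 members, and members of the marker lists. The members, the lists and the 3 high animals were chosen with earlier results of these data known. Animals are the replicates, and precision is limited by their number. The labels do not say whether replicate numbers pair animals across the 2 diets, and the main fits treated the animals as unpaired. Alternatives were quantile normalization, median centring, a floor, a filter on dim probe sets, a trended robust fit, a replicate block and leaving out animals. The steps were tested on simulated data.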

Additional observations from a re-analysis of the deposited data

Results flagged for a closer look

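In the high-oleic group, high-oleic animal 7 lay far from the 7 others for 5 of the 8 probe sets by Dixon's ratio. Its log2 signal was 8.81 for MYH2 against a median of 4.31 in the others. It was 6.04 and 6.36 for the first and second TTN probe sets, against medians of 3.76 and 2.43. It was 7.19 for NEB and 4.71 for KLHL41, against medians of 4.86 and 3.15. MYL1, MYLPF and TNNC2 did not single it out. In the control group 0 probe sets singled out an animal, where control animals 2 and 5 were both high. Chance flags about 5% of such checks, and 5 of 16 were met here. The 8 probe sets share the same animals, and high-oleic animal 7 was known from earlier results as high in muscle genes. So nothing is read from this count.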

How the results depend on the processing

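The count of probe sets called for diet was 0 in every fit run, leave-one-out fits included. The count called for live weight was 0, with a range of 0 to 5 when 1 animal was left out: 5 without control animal 2, 2 without high-oleic animal 7 (no member among them), and 0 for each other animal. It was 5 without control animal 2 and high-oleic animal 7, an alternative chosen after seeing the data, as was leaving out control animals 2 and 5. Member values at the floor numbered 16 with the 2nd percentile and 48 with the 10th, against 32. The median span of the members was 5.61 to 5.85 on leaving out 1 animal and 2.38 without the 3 high animals, against 5.85. Gene pairs with a common order numbered 17 to 21 on leaving out 1 animal and 10 without the 3 high animals, against 17. They numbered 21 with the mean over a gene's probe sets, 18 after quantile normalization, 17 after median centring and 16 with a floor, where TTN and KLHL41 no longer passed (rho 0.338, adjusted permutation p = 0.216, against 0.810 and 0.00071). With values at the floor tied, added after seeing the data, there were 17, or 9 without the 3 high animals; with the mean over probe sets and without those animals, also added, there were 12.

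With live weight in the fit the diet difference was 0.46 for MYH2, 1.28 for MYL1, 1.01 for MYLPF, 0.53 for NEB, 0.75 for TNNC2, and 0.078 and 0.64 for TTN. Without the 3 high animals it was 0.68 for MYL1, 0.25 for MYLPF, 0.32 for NEB, 0.14 for TNNC2 and 0.0067 for the second TTN probe set. On leaving out 1 animal it ran from -0.84 to 0.55 for MYL1, -0.92 to 0.21 for MYLPF, -0.63 to 0.12 for NEB and -1.02 to 0.10 for TNNC2, and kept its sign for the others. High-oleic animal 7 minus control animal 5 was 0.074 for MYH2 after quantile normalization. The cause was not tested. With the replicate number as a block, 0 probe sets were called for diet or live weight, member diet differences ran from -1.23 to -0.34, and unadjusted counts were 194 for diet (against 128) and 76 for live weight (against 124). The deviations of same-numbered animals correlated at -0.16 to 0.30, over 0.1 in 4 of 7 pairs, and 3 of 7 correlated best with their own number. Whether the numbers mark pairs is not known. The unadjusted count for live weight was 251 without high-oleic animal 8, and that for diet was 63 without the 3 high animals.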

Other observations

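Among other muscle genes that placed the same 3 animals on top, high-oleic animal 7 exceeded control animal 5 by 1.93 for PGAM2, 1.25 for ACTG1, 0.68 for SLN, 0.66 for MYOZ1 and 0.40 for MYOT on the log2 scale. The difference was -0.57 for CMYA5. Each value compares 1 array with 1 array.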
